A study of Mus musculus with 6 samples.

Results

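Mitochondria fuse and divide continuously, and the balance sets whether a cell holds a connected network or separate organelles. Fusion joins the outer membranes through the mitofusins Mfn1 and Mfn2 and the inner membranes through Opa1, all GTPases. For division, adapters on the outer membrane (Fis1, Mff and Mief1) recruit the GTPase Dnm1l, better known as DRP1, from the cytosol, and the kinase Pink1 accumulates on damaged mitochondria and marks them for removal. In muscle the network is remodelled as myoblasts become myotubes. The genes described here are these 8 with Opa3, a mitochondrial protein gene mutated in an inherited optic atrophy, and Mtfr1, whose product promotes fission. They were chosen by name, and all 10 had probe sets of 1 gene symbol on the array: 29 probe sets, of 45037 that were not controls.

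The cells were C2C12, an established mouse myoblast line labelled undifferentiated, in 3 samples with added pyruvate and 3 untreated samples, each on 1 Affymetrix Mouse Genome 430 2.0 array. Pyruvate cells were kept for 72 h in DMEM made up without sodium pyruvate and then supplemented with it at 50 mM. Untreated cells had 72 h in basal DMEM, whose own pyruvate content the labels do not give, and both media held 10% fetal bovine serum, 4 mM glutamine and 1% antibiotics. By its title the study asked about pyruvate and mitochondrial biogenesis independent of PGC-1alpha. The treatment also adds sodium and solute, and no control for that was analysed here, so these cannot be told apart from pyruvate itself. The labels do not name separate cultures within a group, so p-values here reflect only how far these 6 samples spread, and that spread may be technical.

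The deposited values are MAS5 signals, 1 per probe set and array on a linear scale, with a median of 30.3 to 31.9 on the pyruvate arrays and 30.6 to 33.0 on the untreated arrays. Log2 changes are pyruvate over untreated on the scale log2(signal + 16), from a limma fit over 22519 probe sets whose mean reached that of the median probe set (a signal of about 30.3), and a probe set was called at an adjusted p under 0.05. All 5 myoblast markers read (Myod1, Myf5, Des, Cdh15 and Itga7) were above that filter, 1 of them higher and 3 lower, with summed signals of 6783 to 7017 on the pyruvate arrays and 7635 to 7932 on the untreated arrays. Of 9 myotube markers, 8 were lower with pyruvate, and their summed signal was 770.8 to 961.7 on the pyruvate arrays against 5891 to 6381 on the untreated arrays, so the 2 groups also differed in how much myotube RNA they held. Its part in the changes described below was not tested, and fewer cells of a type cannot be told apart from less RNA per cell. Of the 3 adipocyte markers matched, 0 reached the filter, and of 4 macrophage markers 2 did (Csf1r and Cd68), with summed signals of 113.4 to 167.0 on the pyruvate arrays and 115.3 to 147.5 on the untreated arrays. Fibroblast markers summed to 182.8 to 238.1 with pyruvate and 209.0 to 218.3 untreated, and endothelial markers to 32.6 to 44.7 with pyruvate and 50.3 to 63.4 untreated, with Kdr called lower.

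The 10 genes moved in both directions and by small amounts. Read on the brightest probe set of each gene, Mfn2 and Fis1 rose, Mfn1, Mff, Mief1 and Mtfr1 fell, and Opa1, Opa3, Dnm1l and Pink1 were not called. That is 6 of 10 called, where 35.1% of the 10685 genes tested were called (20.7% higher and 14.5% lower). The median log2 change of the 10 genes was -0.10 and that of all genes tested was 0.03. The most negative change was -0.39, for Mfn1, and the most positive 0.36, for Mfn2. For 8 of the 10 genes no pyruvate array fell within the untreated range, which was so for 48.6% of all genes tested.

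**Figure D1:**
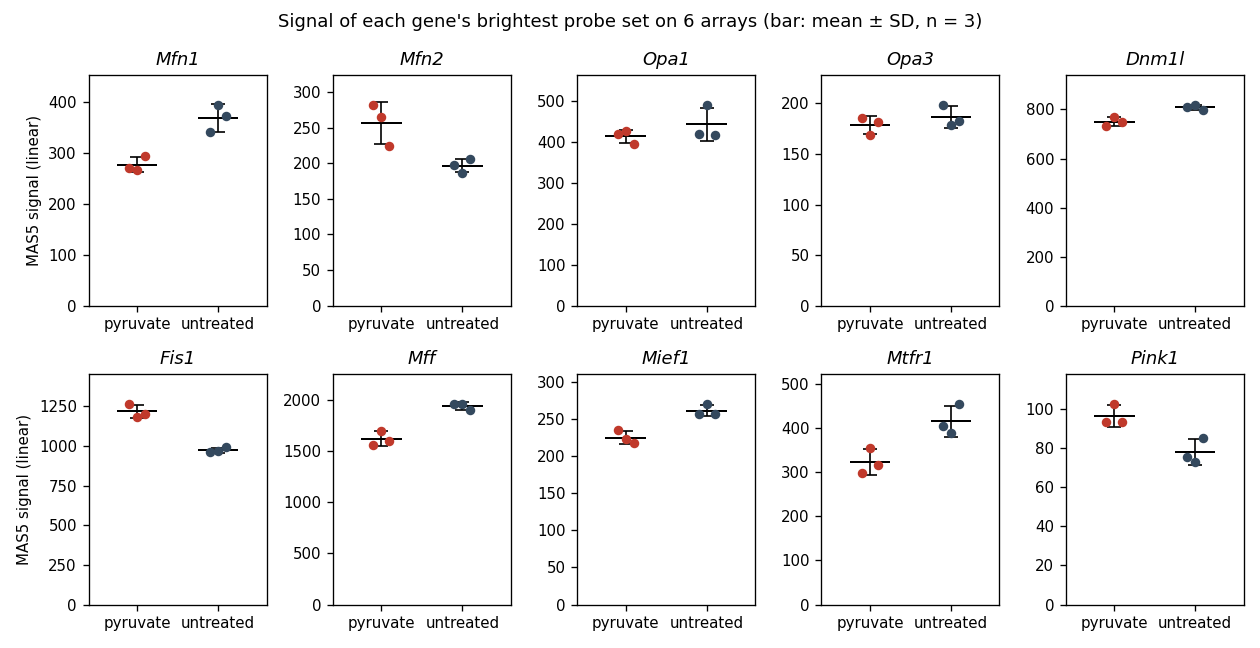
MAS5 signal (linear, from 0) of the brightest probe set of each of the 10 genes on each array, pyruvate left and untreated right. Points are arrays and bars the mean ± SD (n = 3). The pyruvate points lie above all untreated points for Mfn2, Fis1 and Pink1, below them for Mfn1, Dnm1l, Mff, Mief1 and Mtfr1, and overlap them for Opa1 and Opa3.

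On their brightest probe sets the 2 mitofusins, which share the outer membrane step of fusion, moved in opposite directions. Mfn1 had signals of 271.5, 267.8 and 294.1 on the 3 pyruvate arrays, against 341.0, 395.1 and 373.5 on the untreated arrays. Mfn2, which also tethers mitochondria to the endoplasmic reticulum, had 281.9, 264.6 and 224.6 with pyruvate, against 197.3, 186.9 and 206.1 untreated. Every pyruvate array was lower than every untreated array for Mfn1 and higher for Mfn2. Mfn1 fell by 0.39 ± 0.07 on the log2 scale (SE, n = 3 arrays each, adjusted p = 0.0014), a decrease in the means to 278 ± 14.2 with pyruvate, against 370 ± 27.2 untreated (SD). Mfn2 rose by 0.36 ± 0.09 (adjusted p = 0.0091), with means of 257 ± 29.4 with pyruvate and 197 ± 9.61 untreated.

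The mitofusin result depends on which probe set is read. Affymetrix marks a probe set _s_at when its probes match several transcripts, which may belong to different genes, _x_at when some probes resemble unrelated sequences, and _a_at when they match several transcripts of 1 gene. The Mfn1 probe set that fell, 1449697_s_at, is of the first kind. The other tested Mfn1 probe set, 1426773_at, was at 141.0, 146.4 and 108.9 with pyruvate and 140.3, 118.9 and 150.9 untreated, which overlap, and gave -0.05 with a 95% interval of -0.31 to 0.21 (adjusted p = 0.79). That interval takes in no change and smaller decreases, but not the -0.39 of 1449697_s_at. Its estimate turned positive without pyruvate replicate 3 (0.07) or untreated replicate 3 (0.02). For Mfn2 the second probe set, 1451900_at, lay below the filter at 21.5 to 31.1 with pyruvate and 25.2 to 33.6 untreated, so the rise rests on 1448131_at alone.

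Within each array, the log2 difference of Mfn1 minus Mfn2 separated the groups. It was -0.05, 0.02 and 0.37 on the pyruvate arrays and 0.74, 1.02 and 0.81 on the untreated arrays, a change of -0.75. A constant added to all log2 values of an array cancels from this difference. The exact two-sided permutation test gave p = 0.1, the smallest that 3 against 3 arrays allow, and 0.125 adjusted over the 5 pairs of genes compared, so this test cannot reach 0.05. The size of this change rests on 1449697_s_at as the Mfn1 probe set. With Mfn1 read on 1426773_at instead, a choice made after seeing the data, the change was -0.40. The differences were then -0.92, -0.79 and -0.95 with pyruvate and -0.45, -0.59 and -0.41 untreated. The groups did not overlap on that reading either, but Mfn1 itself changed there by -0.05 and Mfn2 by 0.36. Most of the change of -0.40 is therefore the rise of Mfn2.

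The promoters of the mitofusins are shown because their brightest probe sets moved apart, although the other tested Mfn1 probe set was not called. Whether the motif bears on these changes was not tested. RefSeq windows of mouse GRCm38.p6, from 250 bases before a transcription start to 50 after it, were searched on both strands for CCGGAAG (reverse complement CTTCCGG), the core bound by ETS factors such as GABP, also called nuclear respiratory factor 2. That motif, in capitals, starts at base 207 of the Mfn1 window and was not found in the Mfn2 window, which is 1 of 3 overlapping Mfn2 windows that all lack it. Sequences run 5′ to 3′.
Mfn1 at chr3:32529232-32529531 on the plus strand: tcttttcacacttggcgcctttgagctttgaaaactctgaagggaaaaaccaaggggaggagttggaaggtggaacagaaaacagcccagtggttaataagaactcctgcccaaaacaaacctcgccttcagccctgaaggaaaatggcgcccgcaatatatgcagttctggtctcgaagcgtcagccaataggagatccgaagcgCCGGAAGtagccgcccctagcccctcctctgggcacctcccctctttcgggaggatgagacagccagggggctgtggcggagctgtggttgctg
Mfn2 at chr4:147904649-147904948 on the minus strand: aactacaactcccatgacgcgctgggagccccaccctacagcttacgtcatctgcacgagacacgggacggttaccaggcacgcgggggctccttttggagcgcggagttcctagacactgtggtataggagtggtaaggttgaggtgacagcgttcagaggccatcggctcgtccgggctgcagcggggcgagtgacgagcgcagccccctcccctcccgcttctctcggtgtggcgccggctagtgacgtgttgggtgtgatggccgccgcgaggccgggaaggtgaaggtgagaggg

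In all, 9 of the 10 genes had a window, 14 windows together, and 5 windows of 4 genes (Mfn1, Dnm1l, Fis1 and Mief1) held CCGGAAG, against 8.86% of all 32851 windows. CGCATGCG, a core of the nuclear respiratory factor 1 site, was in the Opa1 window alone (1.87% of all windows). AAGGTCA, the core bound by oestrogen-related receptors, AAGATGGC of YY1 and TGACGTCA of CREB were in 0 of the 14 windows (4.72%, 2.75% and 1.79% of all windows). The genes with CCGGAAG include ones that fell (Mfn1 and Mief1) and one that rose (Fis1). The median GC content was 60.1% in the 14 windows and 52.7% in all windows. A match is a string of letters and not a shown binding site.

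Opa1 and Opa3 gave no call on their brightest probe sets. Opa1, which fuses inner membranes and shapes the cristae, was at 420.6, 426.4 and 396.0 with pyruvate and 419.8, 490.6 and 418.2 untreated. These overlapped, and the log2 change was -0.09 (95% interval -0.24 to 0.06, adjusted p = 0.36). Its other probe sets parted. On 1449214_a_at every pyruvate array was lower (150.3, 149.1 and 129.0, against 178.4, 168.3 and 182.5 untreated), with a change of -0.28 ± 0.08 (SE, adjusted p = 0.027). In contrast, 1418768_at had a positive estimate of 0.15 and was not called (adjusted p = 0.25). The call of 1449214_a_at was lost without pyruvate replicate 3 (-0.21, adjusted p = 0.087), untreated replicate 1 (-0.27, 0.084) or untreated replicate 3 (-0.26, 0.089) and after median centring (-0.24, 0.064). The array does not say which Opa1 splice forms these probe sets read.

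Opa3 was the member with the most probe sets, 5, of which 4 were tested and none called. The brightest was at 185.6, 169.1 and 181.4 with pyruvate and 198.5, 178.3 and 183.1 untreated, a log2 change of -0.06 (95% interval -0.23 to 0.11, adjusted p = 0.61). The other 3 tested probe sets lay between -0.08 and 0.04, with the widest interval from -0.42 to 0.25. For Opa1 minus Mfn2 the within-array difference was 0.55, 0.66 and 0.78 with pyruvate and 1.03, 1.32 and 0.97 untreated, a change of -0.44 in which all pyruvate arrays were lower (exact permutation p = 0.1, adjusted 0.125). Opa1 itself changed by -0.09 and Mfn2 by 0.36, so most of this change is the rise of Mfn2.

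**Figure D2:**
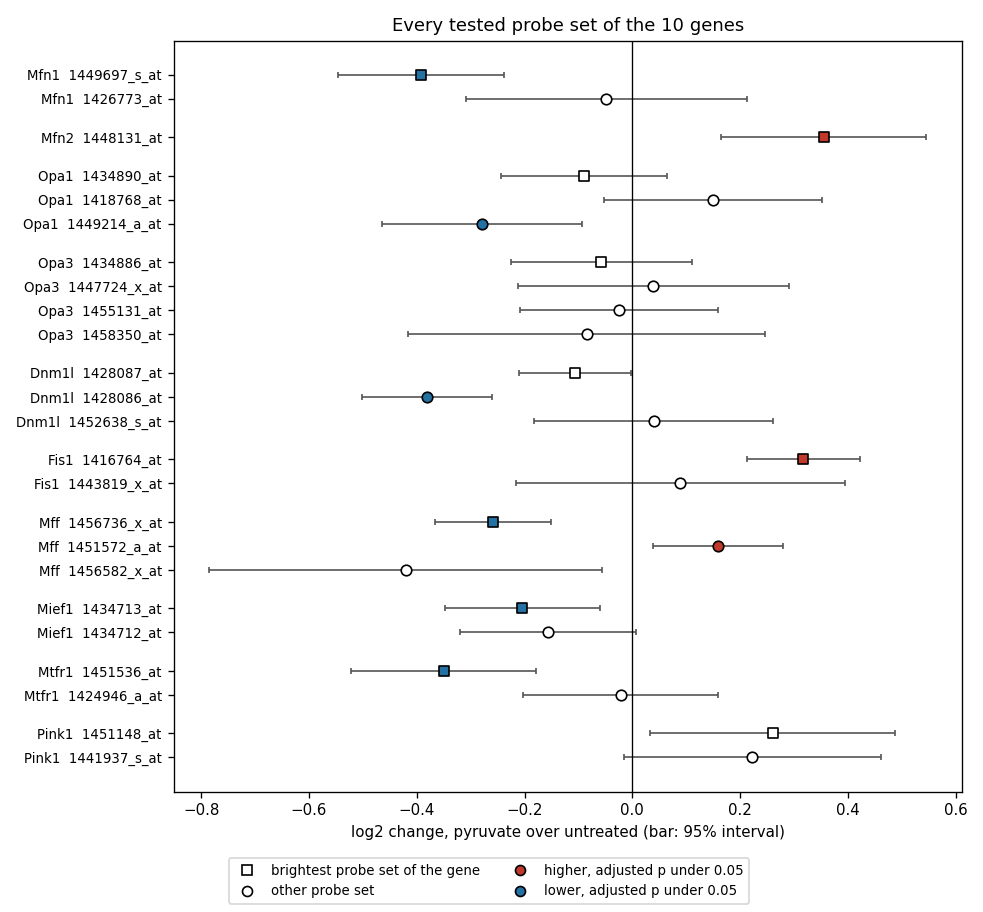
Log2 change (pyruvate over untreated, x axis) with its 95% interval for each of the 24 tested probe sets, grouped by gene down the page. Squares are the brightest probe set of a gene, circles the others, and filled symbols have an adjusted p under 0.05: 3 are higher and 6 lower. Mff is the gene with filled symbols on both sides of 0.

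Dnm1l, the GTPase that constricts mitochondria, was bright on both of its best probe sets, which were designed on the same sequence record but differed in the size of the change. On 1428087_at it was at 733.7, 769.5 and 748.1 with pyruvate and 809.8, 818.4 and 799.4 untreated. On 1428086_at it was at 538.7, 573.2 and 539.9 with pyruvate and 722.9, 755.5 and 687.6 untreated. The pyruvate arrays were lower than all untreated arrays on both. The second fell by 0.38 ± 0.05 on the log2 scale (SE, adjusted p = 0.00034), the lowest adjusted p of all 24 tested probe sets. The first, the brightest, had -0.11 with a 95% interval of -0.21 to 0.00 and was not called (adjusted p = 0.11). After cyclic loess normalization the first was called as well, at -0.14 (adjusted p = 0.044). The third, 1452638_s_at, overlapped between groups at 135.1 to 156.3 with pyruvate and 121.1 to 153.4 untreated (0.04, adjusted p = 0.80). The within-array difference of Dnm1l minus Mfn2, on brightest probe sets, changed by -0.46 with all pyruvate arrays lower (exact permutation p = 0.1, adjusted 0.125). Dnm1l itself changed there by -0.11 and Mfn2 by 0.36, so most of that change is again the rise of Mfn2.

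Among the adapters that bring Dnm1l to the membrane, Fis1 rose and Mief1 fell. Fis1 had signals of 1266.9, 1184.7 and 1203.1 with pyruvate, against 964.1, 966.7 and 992.6 untreated, with no overlap. It rose by 0.32 ± 0.05 on the log2 scale (SE, n = 3 arrays each, adjusted p = 0.00045), the lowest adjusted p among the brightest probe sets of the 10 genes. Its other probe set, 1443819_x_at, overlapped widely, at 225.9 to 327.1 with pyruvate and 198.7 to 277.6 untreated (0.09, 95% interval -0.22 to 0.39, adjusted p = 0.67). The 3704 probe sets with a mean log2 value of 9 to 11, as Fis1 has, had a median change of 0.01, and after quantile normalization Fis1 was still higher, by 0.30 (adjusted p = 0.00049).

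Mief1, which encodes the adapter MiD51, was at 234.8, 222.7 and 217.8 with pyruvate and 256.9, 270.9 and 257.3 untreated. All pyruvate arrays were lower, and it fell by 0.20 ± 0.07 (SE, adjusted p = 0.034). Its second probe set had a log2 change of -0.16 and was not called (adjusted p = 0.13). The Mief1 call was lost without pyruvate replicate 2 (adjusted p = 0.077), pyruvate replicate 3 (0.089) or untreated replicate 1 (0.077), 2 (0.11) or 3 (0.067), with log2 changes of -0.18 to -0.22 in these fits, and also after median centring (-0.17, adjusted p = 0.11).

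The promoter windows of Fis1 and Mief1 are shown because both hold CCGGAAG while the genes moved in opposite directions. It starts at base 233 of the first Fis1 window and at bases 186 and 262 of the Mief1 window, and capitals mark it.
Fis1 at chr5:136953025-136953324 on the plus strand: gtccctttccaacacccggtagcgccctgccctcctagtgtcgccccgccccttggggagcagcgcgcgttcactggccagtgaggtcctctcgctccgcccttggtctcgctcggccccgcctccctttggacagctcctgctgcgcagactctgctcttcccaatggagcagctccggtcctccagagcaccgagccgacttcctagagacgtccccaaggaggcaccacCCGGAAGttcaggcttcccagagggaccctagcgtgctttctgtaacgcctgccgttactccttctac
Mief1 at chr15:80233830-80234129 on the plus strand: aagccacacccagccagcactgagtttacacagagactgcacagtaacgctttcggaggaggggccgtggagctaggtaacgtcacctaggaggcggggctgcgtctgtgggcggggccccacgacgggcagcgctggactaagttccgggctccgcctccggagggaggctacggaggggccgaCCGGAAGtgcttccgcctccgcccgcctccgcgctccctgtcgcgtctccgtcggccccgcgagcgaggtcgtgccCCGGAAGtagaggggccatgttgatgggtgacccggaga

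Mff, a further adapter, was called in both directions. Its brightest probe set, 1456736_x_at, was at 1563.3, 1702.9 and 1604.8 with pyruvate and 1966.4, 1964.1 and 1901.3 untreated, lower on every pyruvate array. On 1451572_a_at, Mff was at 572.0, 534.2 and 531.3 with pyruvate and 502.4, 471.3 and 487.1 untreated, higher on every pyruvate array. The first fell by 0.26 ± 0.05 on the log2 scale (SE, adjusted p = 0.0021) and the second rose by 0.16 ± 0.05 (adjusted p = 0.045). Another, 1456582_x_at, had -0.42 with overlapping arrays (adjusted p = 0.075). Both tested probe sets that were lower in the mean carry the suffix _x_at, and how far they read transcripts of other genes was not tested. The rise on 1451572_a_at lost its call with any of the 6 arrays left out (0.13 to 0.18, adjusted p = 0.058 to 0.15), whereas the fall on 1456736_x_at kept its call in each of these fits. The rise lost its call in 10 of 17 alternatives in all. Among them were the fits without the signal filter (adjusted p = 0.073) and with the replicate block (0.057). The third, 1456582_x_at, was called lower without pyruvate replicate 1 (-0.54, adjusted p = 0.043) or untreated replicate 1 (-0.60, adjusted p = 0.015). Cyclic loess and quantile normalization kept both signs, at -0.36 and -0.31 for the first and at 0.16 and 0.17 for the second.

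In the within-array comparison on brightest probe sets, Fis1 minus Mff was -0.30, -0.52 and -0.41 with pyruvate and -1.02, -1.01 and -0.93 untreated, a change of 0.58 with all pyruvate arrays higher (exact permutation p = 0.1, adjusted 0.125). Mief1 minus Mff overlapped between groups and changed by 0.05 (exact permutation p = 0.5, adjusted 0.5). Both values depend on the Mff probe set: with Mff read on 1451572_a_at, also chosen after seeing the data, the changes were 0.16 for Fis1 minus Mff and -0.36 for Mief1 minus Mff.

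**Figure D3:**
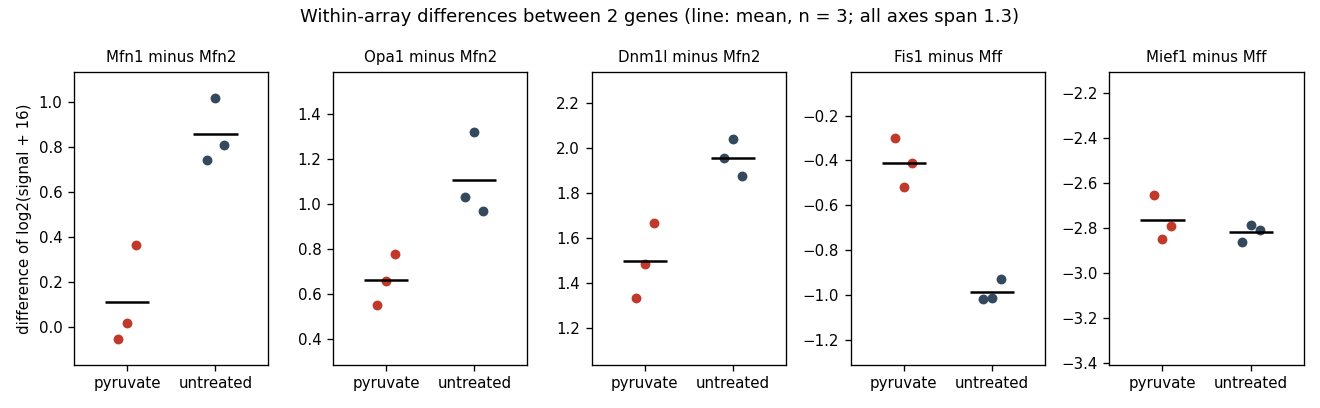
Difference of log2(signal + 16) between the brightest probe sets of 2 genes on each array (y axis), for 5 pairs, with pyruvate left and untreated right and lines at the means (n = 3). The pyruvate points lie below the untreated points for Mfn1, Opa1 and Dnm1l minus Mfn2, above them for Fis1 minus Mff, and overlap for Mief1 minus Mff. The pairs with Mfn2 all subtract the same Mfn2 probe set.

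Mtfr1 fell and Pink1 was not called. Mtfr1 was at 298.7, 354.8 and 316.2 with pyruvate and 404.9, 388.5 and 455.8 untreated, with every pyruvate array lower. It fell by 0.35 ± 0.08 (SE, adjusted p = 0.0056), although its other probe set, 1424946_a_at, overlapped between groups at 187.4 to 219.7 with pyruvate and 190.9 to 216.8 untreated (-0.02, 95% interval -0.20 to 0.16, adjusted p = 0.87). Pink1, the dimmest of the 10 genes on its brightest probe set, was at 93.2, 102.7 and 93.2 with pyruvate and 75.5, 72.8 and 85.4 untreated. The groups did not overlap on either Pink1 probe set, with log2 changes of 0.26 (95% interval 0.03 to 0.49, adjusted p = 0.076) and 0.22 (adjusted p = 0.14). Pink1 passed after quantile normalization (0.29, adjusted p = 0.049), without the variance trend (adjusted p = 0.043) and on the mean of its probe sets (0.24, adjusted p = 0.044).

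Over all probe sets, 9 of the 24 tested were called, where 32.2% of all probe sets tested were. Of the 24, 3 were higher (16.3% of all tested) and 6 lower (15.9% of all tested). Of the 10 genes, 8 had a called probe set, and 7 of these also had a tested one that was not called. A gene with more tested probe sets has more chances of a call. The share of all genes with a called probe set was not computed, so the 8 cannot be judged against it. The remaining 5 probe sets, for Mfn1, Mfn2, Opa3, Dnm1l and Mff, lay below the filter with signals of 1.1 to 36.0, and without the filter their lowest adjusted p was 0.62.

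The members were also read with other choices of probe set. When the log2 values of all probe sets of a gene were averaged, dim ones included, 1 gene was called higher (Pink1) and 2 lower (Mief1 and Mtfr1), and Mfn1 and Mfn2 were at -0.15 (adjusted p = 0.17) and 0.13 (adjusted p = 0.25). With _s_at and _x_at probe sets set aside, an alternative chosen after seeing the data, 3 genes were higher (Mfn2, Fis1 and Mff) and 2 lower (Mief1 and Mtfr1). The share of all genes called under either choice was not computed, so these counts cannot be judged against it.

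**Figure D4:**
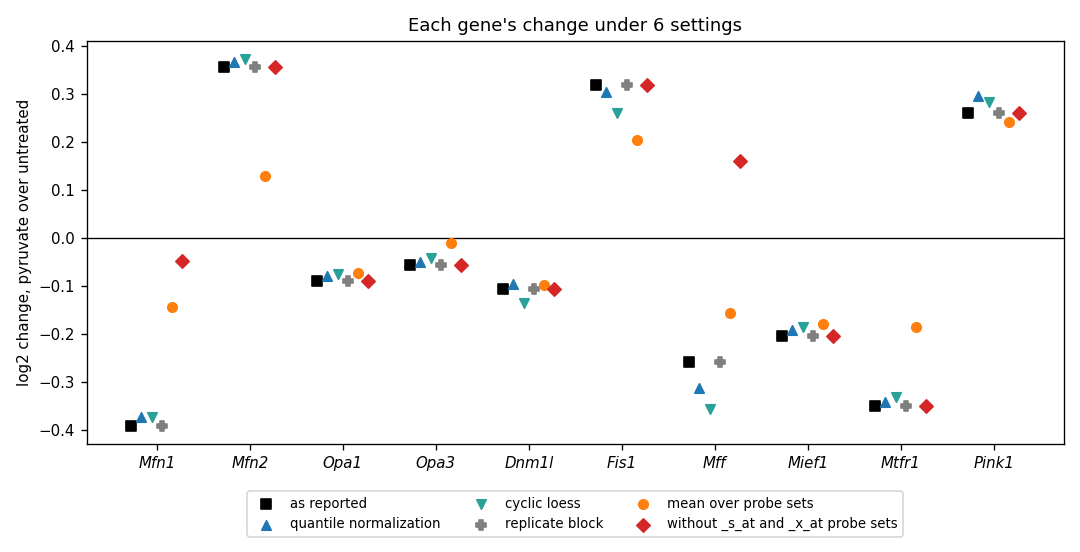
Log2 change (pyruvate over untreated, y axis) of each of the 10 genes as reported and under 5 other settings, shown as symbols side by side. The symbols for quantile normalization, cyclic loess and the replicate block lie within 0.10 of the reported value for every gene, whereas averaging probe sets or setting aside _s_at and _x_at probe sets moves Mfn1, Mfn2, Fis1, Mff and Mtfr1 further, and Mff crosses 0.

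Fis1 was the gene with the lowest adjusted p on its brightest probe set, so the genes closest to it in pattern were read. Over the 6 arrays the 3 highest Pearson correlations of log2 values were with Etfdh, an electron-transfer flavoprotein dehydrogenase of the inner membrane (r = 0.999), the ubiquitin ligase Rnf149 (r = 0.999) and the palmitoyltransferase Zdhhc4 (r = 0.998). They rose by 0.28, 0.72 and 0.51 on the log2 scale. With 2 groups of 3 arrays, any gene that differs between groups with little spread correlates in this way, and 728 genes had r of at least 0.95.

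Genes that act with the 10 were read from 6 further lists, chosen by function. Of 63 genes tested on them, 14 rose and 10 fell, 38.1% against the 35.1% of all genes tested, with a median log2 change of 0.02. Among inner membrane proteases and prohibitins, 2 of 7 rose and 1 fell. Oma1, the stress-activated protease that cuts Opa1, had signals of 195 ± 11.2 with pyruvate and 123 ± 13.5 untreated (SD, n = 3 arrays each) and rose by 0.61 (adjusted p = 0.00048). Yme1l1, the other protease that cuts Opa1, had 354 ± 17.2 with pyruvate and 462 ± 19.5 untreated and fell by 0.37 (adjusted p = 0.00075). For both the arrays did not overlap, and of the other 2 tested Yme1l1 probe sets 1 was called lower. Spg7, a subunit of the matrix-facing AAA protease, rose by 0.27.

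Other fission factors had 3 of 14 higher and 1 lower, where 20.7% of all genes tested were higher and 14.5% lower. In either direction 28.6% of them were called, against 35.1% of all genes tested. That share was 33.3% for other fusion factors and cardiolipin enzymes and 36.4% for the cristae organising complex. The formin Inf2, which builds actin at sites of division, rose by 0.39, the phosphatase Pgam5 by 0.25 and the ubiquitin ligase Marchf5 by 0.17, while the small GTPase Rala fell by 0.18. Among other fusion factors and cardiolipin enzymes, 1 of 6 rose (Crls1, cardiolipin synthase, 0.20) and 1 fell (Triap1, which helps lipid transfer to the inner membrane, by 0.22). In the cristae organising complex 3 of 11 rose and 1 fell. Apool, a cardiolipin-binding subunit of that complex, was at 338 ± 7.05 with pyruvate and 518 ± 17.0 untreated and fell by 0.59 (adjusted p = 1.7e-05), although its other 2 tested probe sets were not called. Micos13 rose by 0.34, Chchd6 by 0.29 and the metaxin Mtx1 by 0.22. Rala, Crls1 and Chchd6 each had 1 other tested probe set, which was not called. For Inf2 and Mtx1 the 1 other was also called higher, and for Marchf5 1 of 3 others was. With 1 array left out, Triap1 lost its call whichever array it was (adjusted p = 0.055 to 0.15). Chchd6 did so without any pyruvate array or untreated replicate 2 or 3 (0.051 to 0.12), Crls1 without pyruvate replicate 2 or 3 or untreated replicate 1 or 2 (0.082 to 0.14), and Marchf5 without pyruvate replicate 3 or any untreated array (0.060 to 0.088). Mtx1 lost its call without pyruvate replicate 3 (0.10) or untreated replicate 1 (0.12), and Rala without untreated replicate 3 (0.068). Another scaling also ended calls: cyclic loess normalization those of Marchf5 (0.10, adjusted p = 0.14), Mtx1 (0.19, 0.052) and Triap1 (-0.21, 0.063), median centring those of Rala (-0.15, 0.088) and Triap1 (-0.19, 0.12), and quantile normalization that of Triap1 (-0.22, 0.055). Without the variance trend, calls ended for Marchf5 (adjusted p = 0.089), Mtx1 (0.092), Crls1 (0.092), Chchd6 (0.060) and Rala (0.063). Without the signal filter they ended for Marchf5 (0.054), Mtx1 (0.081), Crls1 (0.074), Chchd6 (0.074) and Triap1 (0.066). Array weights ended that of Chchd6 (0.063), and the replicate block that of Triap1 (0.080). In the cristae organising complex 1 gene was higher without pyruvate replicate 3, the signal filter or the variance trend, and 3 were lower after cyclic loess. Over all probe sets, the fits with 1 higher called 2970 to 3111 higher, against 3678 as reported. Cyclic loess called 3597 lower, against 3572.

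Mitophagy genes had 5 of 15 higher and 3 lower, where 20.7% of all genes tested were higher and 14.5% lower. The count of higher genes was 3 without untreated replicate 1, 2 or 3, without the signal filter or without the variance trend. Over all probe sets, these fits called 2806 to 3111 higher, against 3678 as reported. Bnip3, a mitophagy receptor gene also induced by hypoxia, was at 365 ± 24.7 with pyruvate and 807 ± 10.2 untreated (-1.11, adjusted p = 2.9e-07). Fundc1, another mitophagy receptor, was at 703 ± 17.3 with pyruvate and 493 ± 8.44 untreated (0.50, adjusted p = 2.9e-05). Usp30, a deubiquitinase of the outer membrane that opposes mitophagy, rose by 0.54, and the kinase Tbk1, which activates mitophagy adapters, fell by 0.43. Genes for movement of mitochondria along the cytoskeleton had 3 of 10 lower and 0 higher, against the same 14.5% and 20.7% of all genes tested. Trak2, an adapter for motors, fell by 0.45, the kinesin Kif5b by 0.34 and Armcx3 by 0.16. Usp30 and Trak2 each had 1 other tested probe set, which was not called. For Tbk1 and Armcx3 the 1 other was also called lower, and for Kif5b 3 of 5 others were. For Fundc1 1 of 2 others was also called higher. The Armcx3 call was lost without pyruvate replicate 3 (adjusted p = 0.055) or untreated replicate 1 (0.091) or 2 (0.063). It was also lost after median centring (0.11) and without the variance trend (0.079).

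**Figure D5:**
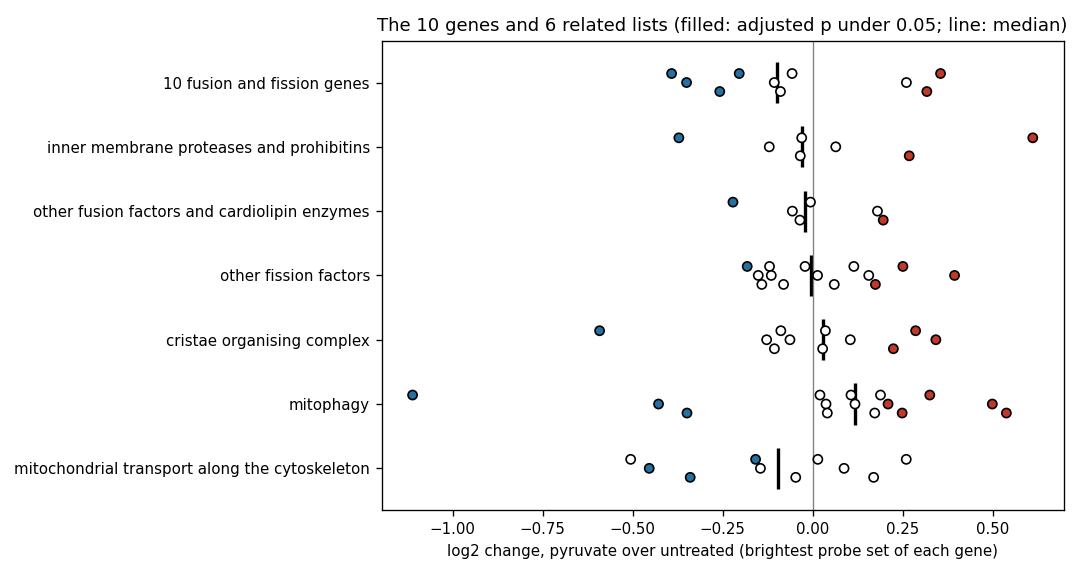
Log2 change (pyruvate over untreated, x axis) of each tested gene in the set of 10 and in 6 related lists, on its brightest probe set. Filled points have an adjusted p under 0.05 and vertical lines are medians, which run from -0.10 for the 10 genes to 0.12 for mitophagy. Each list but the transport genes has filled points on both sides of 0.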

How the data were processed

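Total RNA from 6 samples was hybridised to Affymetrix Mouse Genome 430 2.0 arrays. The deposited values are intensities, MAS5 signals per the submitters' processing notes (settings not given in the sources used here), and the trimmed mean without the lowest and highest 2% was 150.0 on each array, so the authors had scaled them alike. That scaling was kept. A change in total RNA per cell therefore cannot be seen. Of 45101 probe sets 64 controls were left out. Of the rest 34945 had 1 gene symbol in the platform annotation and 932 several, and those with several named no gene.

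Signals were tested as log2(signal + 16) with limma 3.58.1 (R 4.3.3; linear model, eBayes with a trend of variance on mean; two-sided; Benjamini-Hochberg over 22519 probe sets). Folds of dim probe sets are understated on this scale. A gene was read on its brightest probe set over all 6 arrays. Pairs of genes were compared by exact permutation over 20 splits. Alternatives were pseudocounts of 1 and 64, no and a stricter signal filter, other normalizations, variance models and array weights, a block for the replicate number, averaging a gene's probe sets, and each array left out. On simulated data of the same layout (22519 probe sets) the fit recovered 12% of 50 changes of 0.25, 64% of 50 of 0.5 and 84% of 50 of 1. Far fewer probe sets changed there, with 130 called in all against 7250 in the real fit. The adjustment of p is stricter when few change, so these percentages do not give the recovery in the real data.

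The 10 genes, the lists and the tests were chosen with earlier results of these data known. All 10 genes are named. From each list, up to 4 called genes with the largest absolute change are named. Of 74 listed genes 67 matched and 4 of these lay below the filter. The other listed genes are not analysed here. Sequences are from RefSeq. Figures were drawn with matplotlib 3.10.9.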

Additional observations from a re-analysis of the deposited data

How the results depend on the processing

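Precision is limited by having 3 arrays a group and, for dim probe sets, by signal over background. Of the 10 genes, Mtfr1, Opa1 and Opa3 kept their direction and their side of the threshold under all 19 alternatives, and Mff was the member whose sign turned, to 0.16 (adjusted p = 0.045) without _s_at and _x_at probe sets. That alternative lowered the fusion and fission genes called lower to 2, against 4 as reported, since Mfn1 and Mff are then read on other probe sets, and the mean over probe sets gave 1 higher and 2 lower. For neither choice was the share of all genes called computed. With each array left out the counts were 2 higher throughout and 3 to 4 lower. Mief1 lost its call in 7 of 19 alternatives, Mfn1 in 2, and Mfn2, Fis1 and Mff each in 1, the mean over probe sets in each of these last 3. Uncalled probe sets near 0 changed sign: Opa3 1447724_x_at was at -0.015 with array weights, and Opa3 1455131_at and Mtfr1 1424946_a_at were at 0.0095 and 0.013 after median centring. With an array left out the log2 changes ran over -0.13 to 0.070 for Mfn1 1426773_at, -0.070 to 0.17 for Opa3 1447724_x_at, -0.067 to 0.027 for Opa3 1455131_at, -0.23 to 0.064 for Opa3 1458350_at, -0.043 to 0.11 for Dnm1l 1452638_s_at, -0.064 to 0.19 for Fis1 1443819_x_at and -0.078 to 0.036 for Mtfr1 1424946_a_at, none of them called.

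The genes of the 6 wider lists called higher were 14 as reported, 8 without a signal filter and 8 without the variance trend. With an array left out they were 9 to 12, with 9 without pyruvate replicate 3, untreated replicate 1 or untreated replicate 2. Over all probe sets, 3678 were called higher as reported, 2970 without a signal filter and 3111 without the variance trend. With an array left out 2806 to 3473 were. Genes of the wider lists called lower were 10 as reported and 7 to 13 in the alternatives. Over all probe sets, 3572 were called lower as reported and 2464 to 3732 in the alternatives. The cause of these shifts was not tested. The deviations of same-numbered arrays from their group means correlated at -0.009, 0.014 and 0.021. No shared deviation was seen, which cannot exclude that same-numbered samples were handled together. With the replicate block, 2 genes were higher and 3 lower among the 10, with Mief1 at an adjusted p of 0.058, and 14 were higher and 9 lower in the wider lists. Probe sets called in all were 3510 higher and 3407 lower with the block, against 3678 and 3572 as reported.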
